A study of Mus musculus with 4 samples.

Results

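The genes described here are the glutathione S-transferases and the UDP-glucuronosyltransferases of mouse liver, 2 groups of detoxifying enzymes. They were taken as every probe on the array whose gene name begins with Gsta, Gstm, Gstp, Gstt, Gstk, Gsto, Mgst, Ugt1a, Ugt2a, Ugt2b or Ugt3a and a number. This gave 36 gene names on 54 probes, of 31709 names on 39429 probes in all. Each gene was represented by its brightest probe. The probes of 35 genes (22 glutathione S-transferases and 13 glucuronosyltransferases) were bright enough to test, and that of Gstt4 was not well above background in any channel. Of the 35, 34 were well above background in all 8 channels, Gsto2 being the exception with 3 of 4 WT channels.

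Livers came from male C57BL/6 mice on chow, fasted for 4 h: 4 with a global knockout of Ilrun (IlrunKO) and 4 wild types (WT). Each of 4 two-colour arrays held 1 IlrunKO and 1 WT liver, with IlrunKO labelled in Cy5 on arrays 1 and 2 and in Cy3 on arrays 3 and 4. The labels call the samples biological replicates and do not say whether mice were pooled, how the deletion was made or how old the mice were. Values are log2 ratios of IlrunKO over WT, and error is the SD over arrays (n = 4 unless stated). The words rose and fell are kept for genes with an adjusted p under 0.05 by limma over all 19655 genes tested.

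Glutathione S-transferases join the tripeptide glutathione to reactive electrophiles. The alpha (Gsta), mu (Gstm), pi (Gstp), theta (Gstt), omega (Gsto) and kappa (Gstk) classes are soluble enzymes, and the Mgst enzymes sit in membranes. Glucuronosyltransferases of the endoplasmic reticulum add glucuronic acid to bilirubin, steroids, bile acids and drugs. The conjugates of both groups leave the hepatocyte through export pumps, and several of the genes are textbook targets of the transcription factors NRF2, AHR, CAR and PXR.

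As a check of the genotype labels, Ilrun stood at -4.12, -4.11, -4.04 and -4.56 on arrays 1 to 4, and it fell by 4.21 (adjusted p = 0.00332 by limma). All 10 hepatocyte markers listed were bright enough to test. So were all 10 markers each of Kupffer, stellate and endothelial cells, so this does not check the tissue label. Between 60% and 67.3% of all probes were well above background in each channel, and the median standard error of a gene's log2 ratio was 0.0567. The 4 arrays shared 1 slide and 1 scan.

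None of the 35 genes passed, against 270 of all 19655 genes tested (1.37%). By limma, 16 had an unadjusted p under 0.05 (7 above and 9 below 0), a level that 20.5% of all genes reached (10.6% above and 9.87% below). The smallest adjusted p was 0.0545, for Ugt1a10, and 6 genes were under 0.1 (5.69% of all genes). The median size of the log2 ratio, regardless of sign, was 0.358 for these genes and 0.0747 for all genes. The median SD over arrays was also larger, 0.361 against 0.148 for all genes, and it exceeded 0.5 for 8 of the 35 (3.43% of all genes). At least a 1.5-fold difference in either direction was seen for 7 of the 35 (1.72% of all genes). The differences went both ways: 15 genes lay above 0 and 20 below, with a median of -0.05 beside -0.00143 for all genes.

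Agreement between arrays divided the genes. The ratio had 1 sign on every array for 16 of 35 genes (6 above and 10 below 0), which held for 23.3% of all genes (11.7% above and 11.6% below). The normalised levels of the 4 IlrunKO and the 4 WT livers did not overlap for 9 of 35 genes, beside 8.93% of all genes. Those 9 were 3 higher in IlrunKO, namely Gstt2, Gstt3 and Ugt1a6a (4.72% of all genes), and 6 lower, namely Gstm2, Gstm5, Gstm6, Gstm7, Ugt2a1 and Ugt2b1 (4.21%). For Ugt1a6a this holds for the brightest probe, and its other probes had means below 0. In bulk liver, fewer cells of a type and less RNA per cell cannot be told apart.

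**Figure D1:**
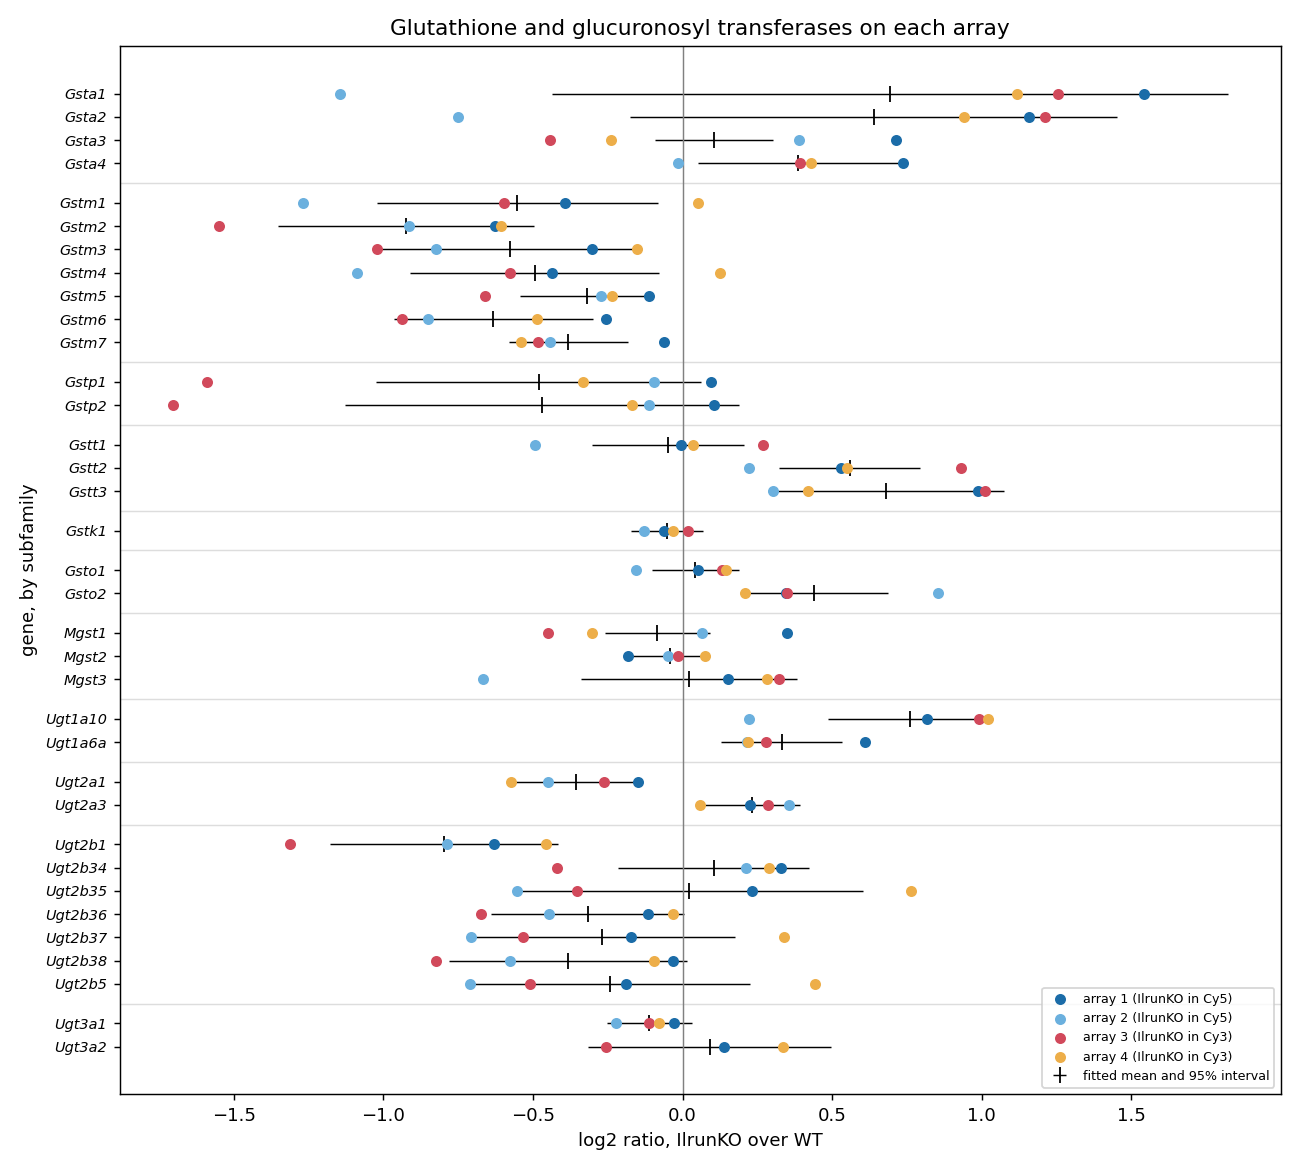
Log2 ratio of IlrunKO over WT (x axis) for the 35 genes tested, grouped by subfamily (y axis); each coloured point is 1 array, and the black mark and line are the fitted mean and its 95% confidence interval. The Gstm genes lie to the left on nearly every array, Gsta1 and Gsta2 have array 2 on the other side of 0 from the other arrays, and Gstp1 and Gstp2 have array 3 far to the left.

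**Figure D2:**
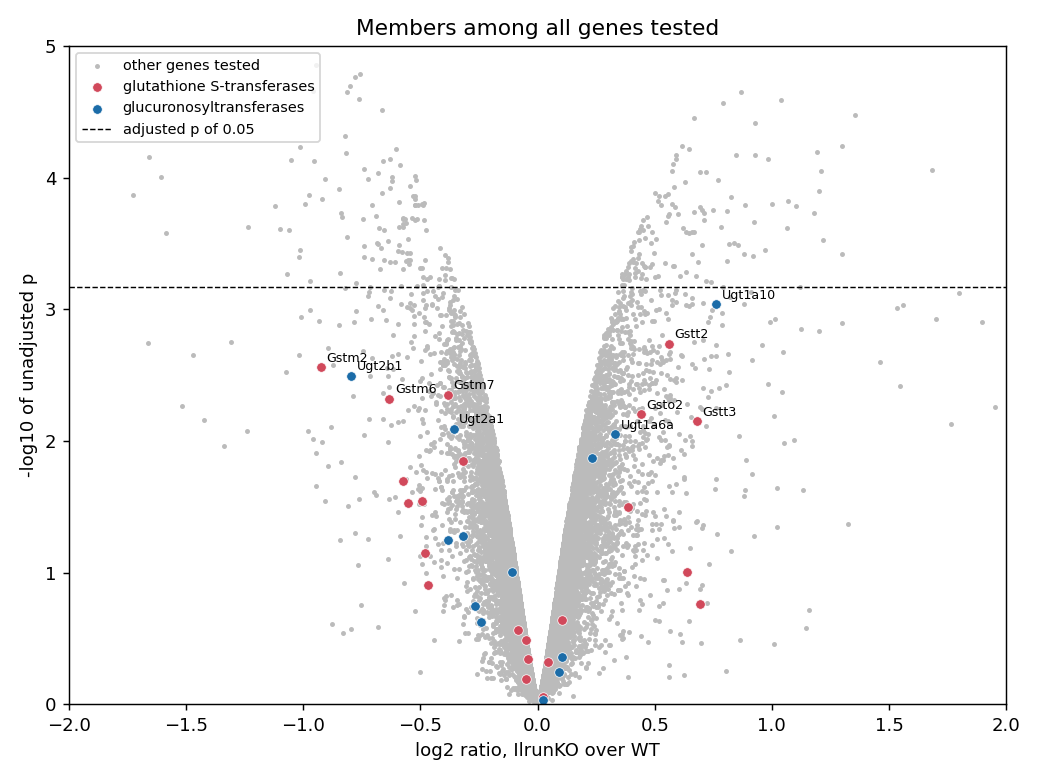
Unadjusted p on a -log10 scale (y axis) against the log2 ratio of IlrunKO over WT (x axis) for all 19655 genes tested, with glutathione S-transferases in red and glucuronosyltransferases in blue. No coloured point lies above the dashed line, which marks an adjusted p of 0.05; 12 genes outside the plotted range, Ilrun among them, are not drawn.

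All 7 genes of the mu class, Gstm, were below 0 with an unadjusted p under 0.05 by limma, beside 9.87% of all genes. This count rests on the brightest probe of each gene. Tested on their own by limma, the dimmer probes of Gstm1 and Gstm4 had an unadjusted p of 0.0696 and 0.207. The median of the 7 was -0.55, and 26 of the 28 ratios (7 genes on 4 arrays) were negative. These ratios share the 4 arrays and are not separate readings of the genotype. None of the 7 genes passed over all genes. Mu enzymes conjugate epoxides and other electrophiles and are abundant in mouse liver. Apart from the probe standing for Gstm1, the probes of these genes lie in 1 cluster on chromosome 3. The class median was -0.30, -0.85, -0.66 and -0.23 on arrays 1 to 4. Refitted without array 2, the median was -0.33, and all 7 stayed below 0.

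Gstm2 was the lowest of the 35 genes. Its normalised level (log2 intensity) was 12.27, 12.02, 11.67 and 12.03 in the IlrunKO livers and 12.90, 12.93, 13.22 and 12.64 in the WT livers, so every IlrunKO liver lay below every WT liver. The ratios of -0.63, -0.91, -1.55 and -0.61 gave a mean of -0.92 ± 0.44 (SD, n = 4), a 1.9-fold lower level in IlrunKO (adjusted p = 0.0782). Its brightest probe is at chr3:107784622-107784681 (mm9). Both of its dimmer probes gave like values, -0.88 ± 0.41 and -0.79 ± 0.19 (n = 4). When each probe was tested on its own over all 24353 probes, the dimmest of the 3 passed (adjusted p = 0.0352; 1.52% of all probes passed) and the other two did not. It was the only probe of the 53 tested here to pass.

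Gstm7 had the next smallest p of the class. Its ratios were -0.06, -0.44, -0.48 and -0.54, with a mean of -0.38 ± 0.22 (SD, n = 4; adjusted p = 0.0916). Array 1 was close to 0 and the others were alike. Its level spanned 9.34 to 9.77 in IlrunKO and 9.83 to 9.90 in WT livers, without overlap. A second probe, printed at 10 spots on each array, gave -0.29 ± 0.25 (n = 4), with array 1 slightly above 0.

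The other mu genes were chosen for mention after their values were seen. Gstm6 read -0.25, -0.85, -0.94 and -0.49, a mean of -0.63 ± 0.32 (SD, n = 4; adjusted p = 0.0935), and its other probes gave -0.56 and -0.67. Gstm5, the mu gene of brain and testis, read -0.11, -0.27, -0.66 and -0.23. For both, IlrunKO and WT levels did not overlap. In Gstm1 and Gstm4 array 2 was lowest, at -1.27 and -1.09, and array 4 was slightly above 0, at 0.05 and 0.13. Gstm3 read -0.30, -0.82, -1.02 and -0.15 on arrays 1 to 4.

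The Gstm1 reading needs a remark on position. Its brightest probe is listed by the files at chr5:117082490-117082549 (mm9), away from the cluster, and its second probe at chr3:107815595-107815654. The probe on chromosome 3 read -0.47 ± 0.51 and the one listed on chromosome 5 read -0.55 ± 0.55 (SD, n = 4). Over all 15 Gstm probes the mean ratios lay between -0.92 and -0.22. Of the brightest Gstm probes, those of Gstm3 and Gstm7 were the only pair listed as alike, with 38 of 55 aligned bases matching (69.1%). Whether 1 Gstm transcript binds the probe of another was not tested.

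Tested genes outside the choice by name that lie within 500 kb of the Gstm probes on chromosome 3 were read beside them. Some are probes without a gene symbol, which are counted as genes here and for the other clusters below. The 21 such genes had a median of -0.04, between -0.41 and 0.51, with 15 of them below 0 and none passing. Of them 5 had an unadjusted p under 0.05, beside 20.5% of all genes. The 6 Gstm genes placed there had a median of -0.53.

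The start of each Gstm gene was read for motifs because all members of the class lay below 0. RefSeq (GRCm38.p6) gave starts for 33 of the 36 names, 41 promoters in all, and the 250 bases before each start were searched on both strands. Printed here 5′ to 3′ are the promoter of Gstm2, the lowest gene (chr3:107986421-107986670, minus strand), and that of Gstm5 (chr3:107895604-107895853, plus strand). The capitals mark the core of the NRF2 site, TGACNNNGC, which the Gstm2 promoter does not hold.
Gstm2: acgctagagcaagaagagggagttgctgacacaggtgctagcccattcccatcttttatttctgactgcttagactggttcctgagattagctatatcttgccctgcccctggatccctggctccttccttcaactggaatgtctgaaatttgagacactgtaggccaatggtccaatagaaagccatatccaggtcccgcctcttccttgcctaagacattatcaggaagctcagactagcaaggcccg
Gstm5: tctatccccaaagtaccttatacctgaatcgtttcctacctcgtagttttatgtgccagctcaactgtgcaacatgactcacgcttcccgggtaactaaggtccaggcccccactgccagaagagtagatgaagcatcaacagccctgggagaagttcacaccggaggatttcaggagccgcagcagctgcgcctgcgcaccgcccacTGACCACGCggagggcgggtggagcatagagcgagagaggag

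The NRF2 core was found in 4 of the 41 promoters (9.8%), those of Gsta3, Gstm5, Gstm7 and Mgst1, and in 10.2% of all 32851 promoters of the same length. In Gstm5 it begins 42 bases before the start and overlaps a match to the AHR core, GCGTG, on the other strand. That core was in 14.6% of the promoters here and in 28.2% of all. The STAT site TTCNNNGAA was in 7.3% against 7.0%, TATAAA in 14.6% against 12.4%, and the HNF4 letters CAAAGTCCA in 0 of 41 against 0.4%. These shares describe letters in a window and nothing about binding.

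**Figure D3:**
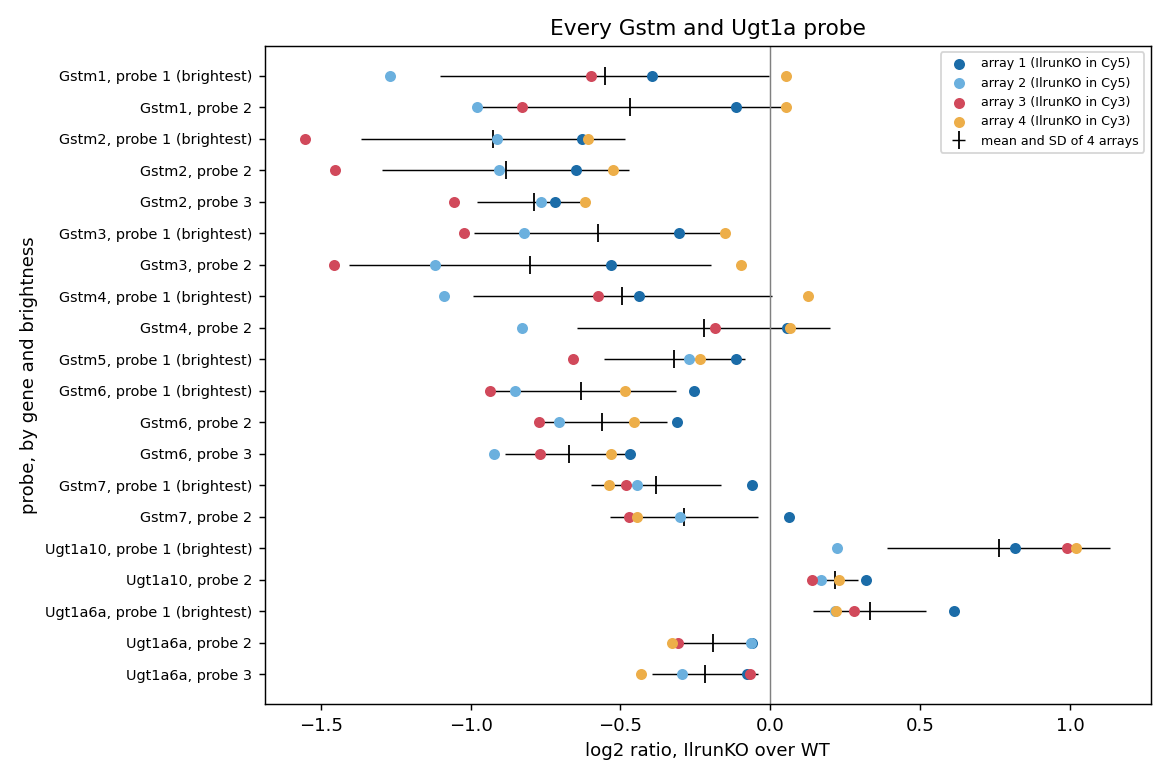
Log2 ratio of IlrunKO over WT (x axis) for every Gstm and Ugt1a probe (y axis), with 1 coloured point per array and the mean ± SD of 4 arrays in black. All 15 Gstm probes have means below 0, whereas the brightest Ugt1a6a probe lies above 0 and its other probes below.

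The alpha class, Gsta, was split by array. Alpha enzymes conjugate electrophiles and reduce lipid peroxides, and Gsta1 and Gsta2 are textbook genes induced through NRF2. All 4 genes had means above 0, with a median of 0.51, but the class median was 0.95, -0.38, 0.80 and 0.68 on arrays 1 to 4. Array 2 thus stood opposite to the rest. The median was 0.85 without array 2 and 0.09 without array 1; in such a 3-array fit the array left alone in its dye orientation weighs as much as the other pair together.

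In Gsta2 the ratios were 1.16, -0.75, 1.21 and 0.94, a mean of 0.64 ± 0.93 (SD, n = 4; adjusted p = 0.336). Gsta1, named after its values were seen, followed it with 1.54, -1.15, 1.26 and 1.12, a mean of 0.69 ± 1.24 (adjusted p = 0.445). The levels show which liver differed. Gsta1 stood at 9.81 in the IlrunKO liver of array 2 and at 11.37 to 11.88 in the other IlrunKO livers, and WT livers ran from 10.08 to 10.95, the highest being that of array 2. Without array 2, Gsta1, Gsta2 and Gsta4 passed as higher in IlrunKO, with ratios of 1.365, 1.12 and 0.58 (adjusted p = 0.00899, 0.0224 and 0.0414 by limma). In that fit 130 of 19575 genes passed as higher. Array 2 held the lowest ratio of each of these Gsta genes, so passing without it is not separate evidence of a difference. With all arrays none of these Gsta genes passed. Without array 1, Gsta2 was at 0.16 and Gsta4 at 0.20, and neither passed.

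The Gsta1 and Gsta2 readings may not be independent. Whether 1 of these transcripts binds the probe of the other was not tested. The probes match in 46 of 50 aligned bases. In the following stretches of 30 bases from them, capitals mark the bases that differ.
Gsta1: ctggcctctaatGgtttgcaattataaaaA
Gsta2: ctggcctctaatTgtttgcaattataaaaT

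Gsta4, which handles the lipid peroxidation product 4-hydroxynonenal, read 0.74, -0.02, 0.39 and 0.43 (0.39 ± 0.31, SD, n = 4; adjusted p = 0.20). It had the smallest p of the class. Gsta3, named after its values were seen, divided by dye orientation instead: 0.71 and 0.39 on arrays 1 and 2, -0.44 and -0.24 on arrays 3 and 4. Its mean was 0.10, and the fit counts such a split as dye, so its adjusted p of 0.508 rests on the spread within each orientation. The brightest probe of Mgst1 had the same pattern, but its second probe, nearly as bright, read 0.10, -0.18, -0.21 and -0.02. The 13 other genes within 500 kb of the Gsta genes on chromosome 9 ran from -0.95 to 0.70 with a median of 0.01, and 5 had an unadjusted p under 0.05. Gclc, the catalytic subunit of glutathione synthesis, is among them and read 0.76, -0.75, -0.29 and 0.78, also lowest on array 2.

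Gstp1 and Gstp2, the pi genes chosen by name, had their lowest ratios on array 3. Gstp1, the main pi enzyme, read 0.10, -0.10, -1.59 and -0.33 (-0.48 ± 0.76, SD, n = 4; adjusted p = 0.288). Gstp2 read 0.11, -0.11, -1.70 and -0.17 (-0.47 ± 0.83; adjusted p = 0.377). For both, array 3 lay far below the other arrays. Without array 3 the means were -0.17 and -0.09, and without array 4 they were -0.80 and -0.85. The Gstp1 level was 14.78 in the IlrunKO liver of array 3, below the 15.67 to 16.07 of the other IlrunKO livers and the 15.77 to 16.40 of WT livers. The dimmer probes gave -0.99 and -1.20 on array 3 and similar means, -0.47 for Gstp1 and -0.50 for Gstp2. Unlike the brighter probes they were also below 0 on array 1 (-0.42 and -0.32), and they read -0.51 and -0.43 on array 2. Gstp3, another pi gene that the files list as BC021614 and that the choice by name therefore missed, read 0.29, 0.36, -0.38 and -0.60, lowest on array 4. The brighter Gstp1 probe and the dimmer Gstp2 probe match in 25 of 30 bases over their most alike stretch. Over the whole probes, fewer bases matched than the 35 needed for a pair to be listed as alike. The stretches follow, with the differing bases in capitals:
Gstp1: cgcggcaaatatgTcaccCtCatctacaCC
Gstp2: cgcggcaaatatgGcaccAtGatctacaGA

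In the theta class, Gstt, 2 of the 3 genes tested had positive ratios on every array. Theta enzymes act on small halogenated compounds and on sulfate esters. Gstt2 read 0.53, 0.22, 0.93 and 0.55, a mean of 0.56 ± 0.29 (SD, n = 4) or 1.47-fold (adjusted p = 0.0703). Its levels were 11.81 to 12.35 in IlrunKO and 11.42 to 11.67 in WT livers, without overlap. Gstt3 read 0.99, 0.30, 1.01 and 0.42, a mean of 0.68 ± 0.37 or 1.6-fold (adjusted p = 0.109). Its IlrunKO livers, 12.92 to 13.68, were all above its WT livers, 12.44 to 12.86. For both, array 2 gave the smallest ratio.

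Gstt1, their neighbour on chromosome 10, read -0.05 ± 0.32 (n = 4), with 2 arrays on each side of 0. The 23 other genes within 500 kb had a median of -0.02, and none passed.

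**Figure D4:**
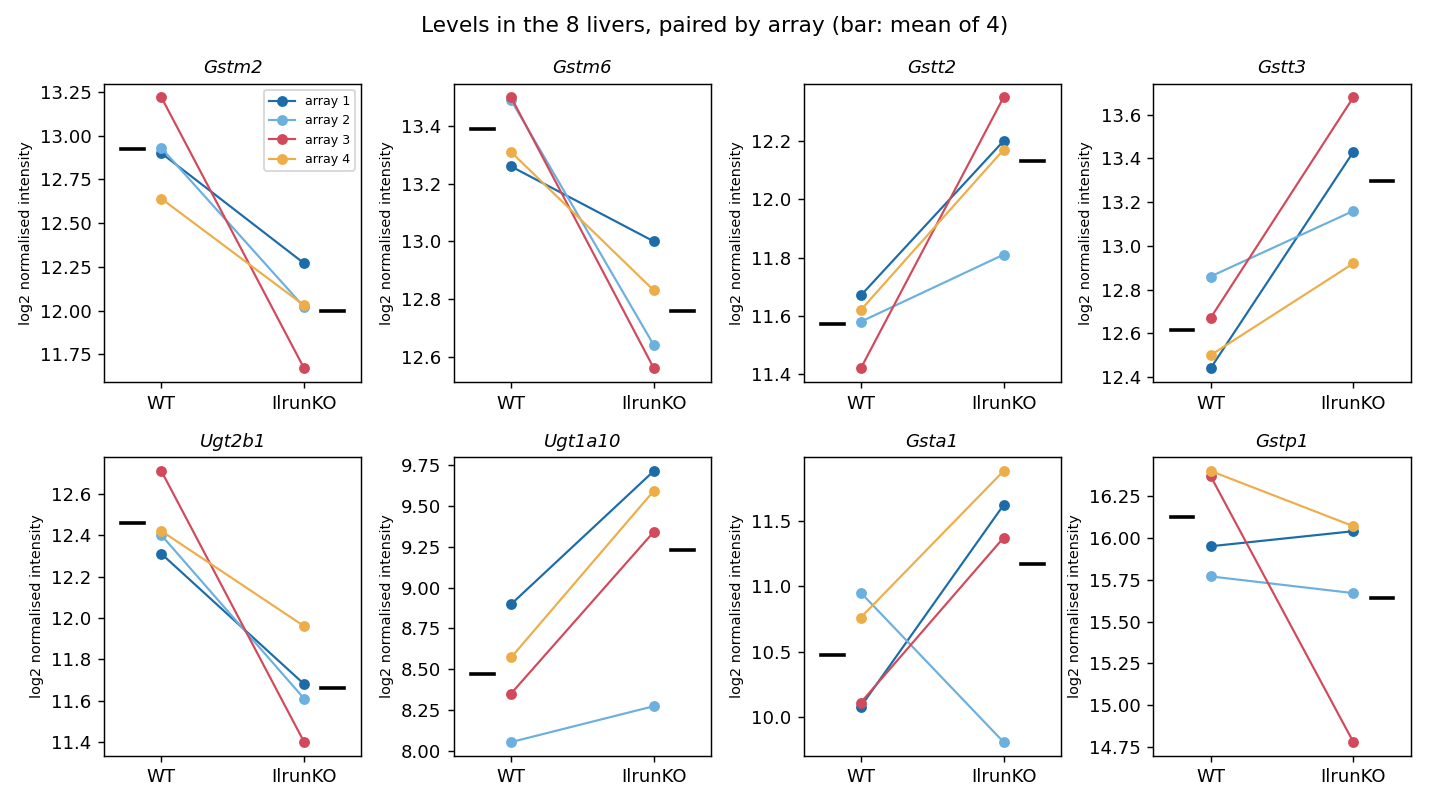
Normalised log2 intensity (y axis) of 8 genes in WT and IlrunKO livers (x axis); each line joins the 2 livers of 1 array, and black bars are the means of 4 livers. The 2 groups do not overlap for Gstm2, Gstm6, Gstt2, Gstt3 and Ugt2b1, while the line of array 2 runs against the others for Gsta1 and that of array 3 is the steepest for Gstp1.

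The remaining glutathione S-transferases were close to 0, apart from Gsto2. Gsto2, an omega enzyme that reduces dehydroascorbate, read 0.35, 0.85, 0.35 and 0.21 (0.44 ± 0.28, SD, n = 4; adjusted p = 0.103). Its probe was dim, with levels of 6.68 to 7.25 in IlrunKO and 6.35 to 6.81 in WT livers that overlapped. Its mean depended on the treatment of background, being 0.81 in the deposited ratios and 1.67 with Agilent's processed intensity, without passing in either. The 95% confidence interval of the log2 ratio ran from -0.17 to 0.07 for Gstk1, the mitochondrial and peroxisomal kappa enzyme, and from -0.10 to 0.19 for Gsto1. That of Mgst2, which can make leukotriene C4, was -0.18 to 0.09. Mgst1, the abundant microsomal enzyme, read 0.35, 0.07, -0.45 and -0.30, a mean of -0.08. Mgst3, named after its values were seen, read 0.15, -0.67, 0.32 and 0.28, with array 2 again opposite.

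Among the glucuronosyltransferases, the brightest probes of the 2 Ugt1a names had positive ratios on all 4 arrays. The Ugt1a genes share 1 locus on chromosome 1, where alternative first exons are joined to a common 3′ part, and Ugt1a1 of that locus conjugates bilirubin. Ugt1a10 read 0.82, 0.22, 0.99 and 1.02, a mean of 0.76 ± 0.37 (SD, n = 4) or 1.7-fold (adjusted p = 0.0545). The level was lowest on array 2 in both livers, 8.27 in IlrunKO and 8.05 in WT, and the IlrunKO liver of that array lay below most WT livers. On the other arrays IlrunKO stood at 9.34 to 9.71 and WT at 8.35 to 8.90. Ugt1a10 passed without array 1 (0.61; adjusted p = 0.0345), without array 2 (0.91; adjusted p = 0.0215) and in the deposited ratios (0.85; adjusted p = 0.0357). It did not pass without array 3 (adjusted p = 0.22), without array 4 (0.178), without the dye term (0.0858), with Agilent's processed intensity (0.0802), with median centring (0.302) or as the mean of its probes (0.49; adjusted p = 0.0632). Only 1 of all genes tested passed without array 3, and likewise without array 4 and with median centring. Failing in those settings is therefore not particular to Ugt1a10. A dimmer probe next to its brightest probe gave 0.21 ± 0.08 (n = 4), above 0 on every array.

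The 3 Ugt1a6a probes did not agree. The brightest, at chr1:90115493-90115552 (mm9), read 0.61, 0.22, 0.28 and 0.22, a mean of 0.33 ± 0.19 (SD, n = 4; adjusted p = 0.119). A probe farther upstream at chr1:90035781-90035840 read -0.06, -0.06, -0.31 and -0.33 (-0.19 ± 0.15). The third, just downstream of the brightest at chr1:90116514-90116573, was dim and read -0.08, -0.29, -0.07 and -0.43 (-0.22 ± 0.18). Each probe kept 1 sign on all 4 arrays, so the direction read under this name depends on the probe. The mean of the probes was -0.03, and they need not measure the same transcripts. Which transcripts of the locus each probe measures was not settled from the files. The first 30 bases of the probes, in the same order, show 3 different stretches.
Ugt1a6a, brightest: accaaagtatgttctaaggcaagtacatct
Ugt1a6a, upstream: tccttacaccagaattctctgtggctgtta
Ugt1a6a, downstream: catttcagattcaagctatatattctgacc

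Ugt2b enzymes conjugate steroids, bile acids and drugs, and 5 of the 7 lay below 0 (median -0.27). The class median was -0.11, -0.58, -0.53 and 0.29 on arrays 1 to 4, so array 4 was opposite. It was -0.05 without array 3 and -0.48 without array 4. Ugt2b1 stood apart with -0.63, -0.79, -1.31 and -0.46, a mean of -0.80 ± 0.37 (SD, n = 4) or 1.74-fold lower (adjusted p = 0.0826). Its levels were 11.40 to 11.96 in IlrunKO and 12.31 to 12.71 in WT livers, without overlap. Ugt2b36 had the next smallest p, with -0.11, -0.45, -0.67 and -0.03 (-0.32 ± 0.30; adjusted p = 0.25). It was -0.16 without array 3 and -0.48 without array 4.

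The other Ugt2b genes had means from -0.38 to 0.10. Ugt2b5, Ugt2b37 and Ugt2b35, named after their values were seen, shared a pattern of negative ratios on arrays 2 and 3 and positive ones on array 4 (0.44, 0.34 and 0.77). The probes of Ugt2b37 and Ugt2b5 match in 50 of 56 aligned bases, so these readings may be of a mixture; 30 bases of each follow, with the differing bases in capitals.
Ugt2b37: aactttcagcctcattctAatttatgaGcc
Ugt2b5: aactttcagcctcattctTatttatgaAcc

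The Ugt2a pair, beside the Ugt2b genes on chromosome 5, went opposite ways. Ugt2a1, the olfactory enzyme, was dim here and read -0.15, -0.45, -0.26 and -0.57 (-0.36 ± 0.19, SD, n = 4; adjusted p = 0.114). Its IlrunKO levels, 6.62 to 6.999, were below its WT levels, 7.13 to 7.26. With Agilent's processed intensity its mean was -0.87, also without passing. Ugt2a3 read 0.23, 0.36, 0.29 and 0.06 (0.23 ± 0.13; adjusted p = 0.141). The 11 other genes within 500 kb of the Ugt2 cluster ran from -0.69 to 0.40 with a median of -0.07, and 5 had an unadjusted p under 0.05.

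Ugt3a enzymes use sugars other than glucuronic acid. Ugt3a1 read -0.11 ± 0.08 (SD, n = 4), with a 95% confidence interval from -0.25 to 0.03. Ugt3a2 read 0.14, -0.26 and 0.34 on arrays 1, 3 and 4 (0.09 ± 0.30, n = 3), its spot on array 2 having been dropped as an outlier.

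Genes around the transferases were read from 5 lists. In glutathione synthesis, recycling and breakdown, 1 of 17 genes tested rose and 2 fell (0.717% and 0.656% of all genes). Ggct, which releases 5-oxoproline in glutathione breakdown, rose: 0.81, 0.85, 0.42 and 0.23, a mean of 0.58 ± 0.30 (SD, n = 4; adjusted p = 0.0346). Chac1, a stress-induced enzyme that cleaves glutathione, fell: -1.07, -0.78, -1.09 and -0.74, a mean of -0.92 ± 0.19 (adjusted p = 0.0346). Glrx, the cytosolic glutaredoxin, fell by 0.99 (adjusted p = 0.0346), being below 0 on every array. Chac1 and Glrx were close to Gstm2 in the size of the ratio but varied less, with SDs of 0.19 and 0.23 against 0.44. Of those that did not pass, Gss (glutathione synthetase) read 0.17 and Cbs (transsulfuration) -0.25. The median over the 17 genes was -0.09.

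In the other lists no gene passed. Counts at an unadjusted p under 0.05 are given beside the 20.5% of all genes that reached it. Of 18 peroxidases and other glutathione users 3 did, and the smallest p-values were those of Gpx6 (log2 ratio 0.70) and Gpx8 (log2 ratio -0.32). Of 11 genes of glucuronic acid supply and removal, 4 did, led by Nt5e (0.33). Ugdh, which makes UDP-glucuronic acid, read 0.25, -0.15 and 1.07 on arrays 1, 2 and 4 (adjusted p = 0.11, n = 3). Of 17 conjugate transporters, 4 did. The uptake carrier Slco1a1 read -0.67, -1.28, -1.32 and -0.26 (-0.88 ± 0.51; adjusted p = 0.113), and the pump Abcb1a read 0.19. Of 21 transcriptional regulators, 7 did, with Onecut1 at -0.27 and Ppara at -0.18 leading.

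Marker lists of cell types were read beside these values. The median of 10 hepatocyte markers was 0.03, 0.13, -0.65 and -0.49 on arrays 1 to 4. Gsta3 and the brightest probe of Mgst1 had the same order of signs. It is also the order of the dye orientations, so a difference in hepatocyte markers cannot be told apart from dye here. Not every marker followed it: Asgr1 was above 0 on every array, and Apoa1, Apob and Tat were below 0 on every array. Summed normalised hepatocyte marker levels were 686000 to 1140000 in IlrunKO and 905000 to 1250000 in WT livers. The median of 10 Kupffer cell markers was -0.30, 0.81, 0.58 and 0.58, and their sums were 34700 to 52500 in IlrunKO and 27000 to 43500 in WT livers. All 10 stellate cell markers had means below 0 (median -0.33, sums of 25000 to 35900 against 36700 to 39200). So did every Gstm gene and 9 of the 10 hepatocyte markers (median -0.315), while all 10 Kupffer cell markers had means above 0. Of 10 adipocyte markers 7 were tested and 2 rose (0.717% of all genes), Cfd (3.82) and Adrb3 (1.04). Of the 7, 6 had means above 0 and 1 below, with a median of 0.694. Cidec (1.53), Pparg (0.694), Cidea (0.415), Retn (0.14) and Fabp4 (-0.11) did not pass. Lep, Adipoq and Plin1 were not well above background. The sums of this list were 6180 to 9470 in IlrunKO and 2920 to 3490 in WT livers. The 10 endothelial markers had a median of -0.08 (sums of 22800 to 26700 against 24500 to 27600). The part of these cell types in the transferase values was not tested.

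Across the 35 genes the arrays resembled each other unequally. Pearson's r between arrays, a description over genes that share arrays and partly sequence, was 0.758 for arrays 1 and 3, 0.746 for 3 and 4 and 0.699 for 1 and 4. It was 0.388, 0.292 and 0.0596 for array 2 with arrays 1, 3 and 4. Over all probes r was 0.381, 0.318 and 0.075 for the same 3 pairs, and 0.187, 0.179 and 0.509 for arrays 1 and 3, 1 and 4, and 3 and 4, so the low value for arrays 2 and 4 was seen there too. Array 2 had 25 of its 34 ratios below 0, compared with 17, 22 and 15 of 35 on arrays 1, 3 and 4.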

How the data were processed

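The scanner files that the authors deposited hold each spot's raw intensity, its processed intensity and the log10 ratio between dyes. Per the file headers, Agilent Feature Extraction (10.10.1.1) wrote them. A deposited set of values holds log2 ratios of IlrunKO over WT, checked against the scanner ratios. Limma is named in the submitters' processing notes; its version and settings were not given in the sources used here.

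Starting from raw intensity, new ratios were made in R 4.3.3 with limma 3.58.1 (files read by the data.table package, 1.17.8): normexp background correction (offset 50), loess within arrays with control spots at weight 0, outlier spots left out, and spots of a probe averaged. No spot was saturated. Levels are loess ratios after quantile normalisation of the mean brightness across arrays. Genes entered the test if the brightest probe exceeded background clearly in 3 or more channels of 1 genotype and could be fitted. lmFit and eBayes were run with a genotype and a dye term (2 residual and 2.83 prior degrees of freedom), two-sided, with Benjamini-Hochberg adjustment over all genes and a threshold of 0.05. The dye term also takes up differences between arrays 1 and 2 and arrays 3 and 4. Positions of probes come from the files (mm9), and exons were not assigned because the RefSeq tables are GRCm38.p6. The fit was tested on simulated data, with settings and outcome not reported here.

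Members and lists were chosen with earlier results of these data known. Named were Ilrun, every member that passed, the 2 tested members of each subfamily with the smallest p, and in each pathway list the genes that passed (up to 6) and the 2 next; others are marked. Alternatives covered the dye term, background, normalisation, filter, probes, variance model, array weights, threshold and each array left out. One of the cell type marker lists is not reported here.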

Additional observations from a re-analysis of the deposited data

Results flagged for a closer look

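In 5 of 34 genes with a value on all 4 arrays, 1 array lay far from the other three by Dixon's test. The nominal rate of that test is about 1 in 20 groups. No share over all genes was obtained, so the count is not read as an excess. Gsta2 read -0.75 (exactly -0.751) and Gsta1 read -1.15 on array 2, both against positive ratios on the other arrays. Gstp2 read -1.70 on array 3. Ugt2b34 read -0.42 (-0.418) on array 3 against 0.21 to 0.33 elsewhere. Ugt1a6a read 0.61 (0.612) on array 1 against 0.22 to 0.28. The probes of Gsta1 and Gsta2 share sequence, so these may not be separate events.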

How the results depend on the processing

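The 7 Gstm genes lay below 0 in every alternative run, including median centring, which moved the median of all genes to -0.0501. The count of transferases that passed as higher, 0, became 1 (Ugt1a10) with normexp at offset 0, with no background correction and with the deposited ratios, and 2 (Ugt1a10 and Gstt2) at an adjusted p under 0.1; leaving out 1 array gave 0 to 4. The count that passed as lower, 0, became 1 with every probe on its own (Gstm2) and 4 at an adjusted p under 0.1 (Gstm2, Ugt2b1, Gstm7 and Gstm6); leaving out 1 array gave 0 to 2, the 2 being Gstm6 and Gstm7 without array 1. Gsto2 passed without array 1. Between 12 and 21 genes had an unadjusted p under 0.05 across settings that use 1 value per gene. Over all genes, 141 higher became 238 without background correction, 41 with Agilent's processed intensity, 247 in the deposited ratios, 0 with median centring and 596 at the looser threshold, and 0 to 298 without 1 array. The 129 lower became 84 without the dye term, 204, 39, 202, 1 and 523 in turn for the same settings, and 1 to 166 without 1 array. Single genes were followed through the alternatives for the 21 members named by rule only, not for Gsta1, Gsta3, Mgst3, Ugt2b34, Ugt2b35 or the rest. Among the 21, the sign turned for Ugt3a2 (-0.0567) and Gsto1 (-0.12) with median centring, for Gsto1 when 1 array was left out (-0.00897 without array 1, to 0.0949 without array 2) and for Ugt1a6a as the mean of its probes (-0.026); the cause was not tested. The ratio on an array already pairs 1 IlrunKO with 1 WT liver, so every fit is paired by array. Signal over background limits Gsto2 and Ugt2a1, whose probes were dim: offset 0 moved them to 0.916 and -0.622.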
